A study of Rattus norvegicus with 9 samples.

Results

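The genes described here are the protein-coding genes of the deposited count table whose symbols begin with Itga or Itgb, leaving out the Itgb1bp, Itgb3bp and Itgbl genes, or with Lama, Lamb or Lamc and a number. They came to 37 of 37991 genes, 26 encoding integrin subunits and 11 encoding laminin chains, and no measured value entered the choice. RNA was sequenced from medial prefrontal cortex (mPFC), a frontal region that takes part in mood and decision making, of Wistar Kyoto rats, a strain used in work on depression-like behaviour. In the K4 group, a compound known here only by that code name was infused by vein through a cannula over 7 days. In the Ketamine group, ketamine, an anaesthetic that blocks NMDA-type glutamate receptors, was injected under the skin over 7 days. Drug was then withheld for 7 days in both, whereas Control rats had no treatment of any kind, and all libraries carry the label day 15. Each group has 3 libraries. Dose, sex and age are not given, and no vehicle group was analysed here, so a drug's effect cannot be told apart from that of its route, its injections or its cannula. The labels do not say that libraries of a group came from different animals, and p-values therefore measure only the spread between these libraries, which may be technical.

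Integrins are cell-surface receptors made of an alpha and a beta subunit, which link the matrix outside a cell to the actin skeleton inside it. The pair decides what is bound: some integrins bind collagen, some laminin, some proteins that carry the tripeptide Arg-Gly-Asp (RGD), and a leukocyte set binds other cells and complement. Laminins are secreted trimers of an alpha, a beta and a gamma chain that form the sheet of the basement membrane. In brain they lie around blood vessels and beneath the meninges, where integrins and dystroglycan on endothelial cells, pericytes and the end-feet of astrocytes hold on to them.

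Libraries held 28495399 to 32735785 counts in K4, 27122207 to 33837450 in Ketamine and 40863756 to 42731004 in Control. The 13 mitochondrial protein-coding genes took 10.8 ± 0.518% of counts in K4, 11.4 ± 0.652% in Ketamine and 15.1 ± 3.68% in Control (SD, n = 3 each). Control replicate 2, in which they took 19.0%, stood apart and gave the highest value of the 9 libraries for 13 of the 35 members that passed the filter on low counts. All 12 listed markers of cortical excitatory neurons passed that filter. Of 10 listed choroid plexus and ependyma genes 6 passed it too, while Clic6, Folr1 and Otx2 were at 0 in all libraries. Counts also depended on transcript length in a way that differed between groups. The slope per doubling of length, of each library's deviation from the mean log2 level of a gene, was -0.02 to 0.00 in K4, -0.07 to -0.02 in Ketamine and 0.04 to 0.07 in Control libraries. Integrin and laminin transcripts are long: their median implied length was 5.88 kb, against 2.93 kb over all tested genes, and 34 of the 35 exceeded that median.

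After drug and withdrawal, part of this adhesion set was lower than in untreated rats, and no member was called higher. With K4, Itgav, Itgb8, Lamc1, Lama4 and Lama5 fell. With ketamine the same 5 genes fell, together with Itga1, Itga6, Itgb1 and Lama2. Itga1, a collagen receptor subunit, was 3.07-fold lower in Ketamine than in Control libraries, and every other call was a difference of 1.23-fold to 1.61-fold. When the trend over transcript length was removed, Itgb8 and Itgav in K4, and Itgb8, Itga1 and Itgb1 in Ketamine, were still called lower.

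Levels of different genes can be compared only per length, for which the deposited TPM was used, a unit that corrects for transcript length and depth. Itgb1, the beta subunit shared by most integrins of brain cells, stood first with 51.3 ± 4.96 TPM in K4, 43.9 ± 3.58 in Ketamine and 59.0 ± 4.85 in Control (SD, n = 3). Itgav, the alpha subunit of the RGD-binding family, followed with 25.5 ± 0.817 TPM in K4, 27.9 ± 3.40 in Ketamine and 32.8 ± 2.82 in Control. Itga6, a laminin receptor subunit, had 21.8 ± 1.11 TPM in K4, 19.2 ± 0.398 in Ketamine and 25.0 ± 2.41 in Control. The order among the next genes was not fixed. Itgb8 averaged 17.8 TPM in K4, 15.9 in Ketamine and 23.2 in Control, so it stood above Itgb5 and Lamb2 in Control, while in K4 and Ketamine Itgb5 had 18.7 and 18.0 TPM. Itga3, Lamc1, Lamb1 and Lama4 came after them, from 15.5 TPM for Itga3 to 8.56 TPM for Lama4 in K4. At the other end, Itga2 was at 0 TPM in 7 of the 9 libraries and Itgad likewise in 7, and neither passed the filter on low counts.

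**Figure D1:**
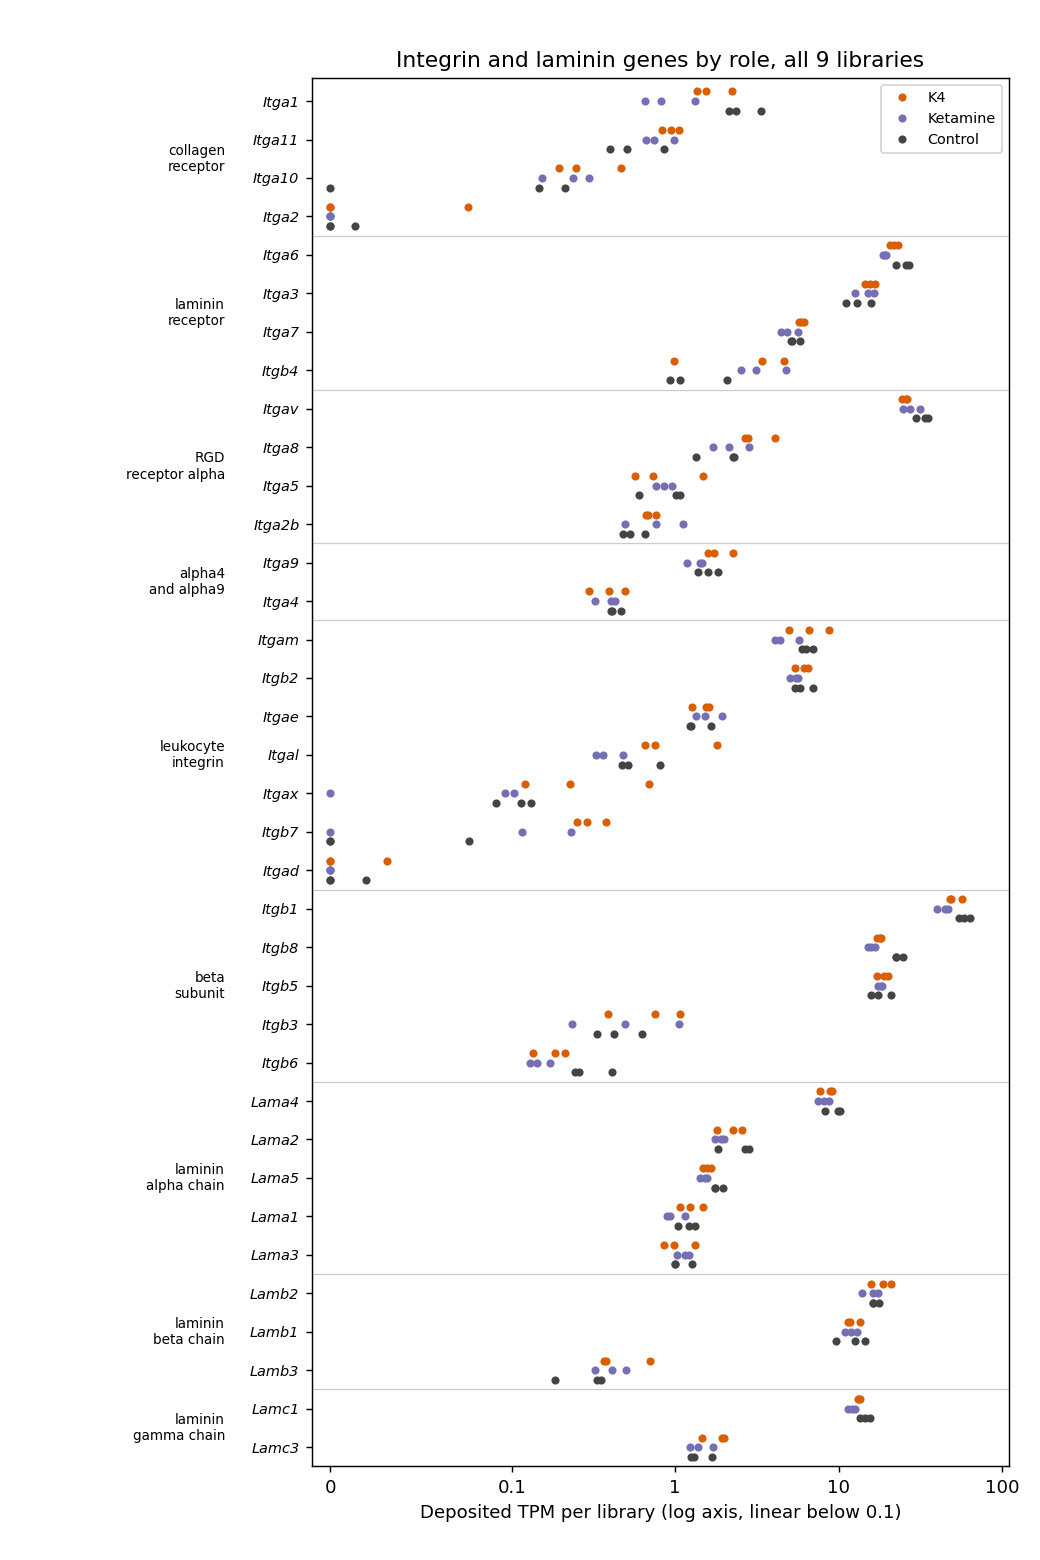
Deposited TPM of the integrin and laminin genes described here in each library (points; log axis, linear below 0.1), grouped by role and ordered by mean level, with K4 above Ketamine above Control. Itgb1, at 39.9 to 64.0 TPM, is the highest in every library, and Itga2 and Itgad lie at or near 0.

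Seen as chains, the laminin transcripts of this tissue were mainly alpha4, beta2, beta1 and gamma1. Lama4, the alpha chain typical of blood vessel walls, made up 58.5 ± 1.81% of the summed TPM of the 5 alpha chains in K4, 59.6 ± 1.25% in Ketamine and 59.1 ± 0.579% in Control. Lamb2, a beta chain of vessel and synaptic basement membranes, made up 59.0 ± 1.70% of the beta chains in K4, 56.1 ± 2.12% in Ketamine and 57.4 ± 5.12% in Control. These shares overlapped between all groups. Among gamma chains, Lamc1, the usual partner in most laminins, gave 64.1, 67.4 and 68.1% in K4 libraries, 69.7, 66.3 and 68.4% in Ketamine libraries and 70.6, 75.3 and 73.1% in Control libraries. Every Control library was above every library of both drug groups.

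Tests were made on counts with edgeR's quasi-likelihood test over all 18047 genes that passed the filter, and a call means that p, adjusted after Benjamini and Hochberg over those genes, was below 0.05. Of the 35 members tested, 5 were called in K4 against Control, where 6.07% of all genes were called in either direction and 3.8% were called lower. In Ketamine against Control 9 of the 35 were called, where 16.7% of all genes were called in either direction and 9.75% were called lower. The median log2 fold change of the members was -0.11 in K4, beside -0.0046 over all genes tested, and -0.24 in Ketamine, beside -0.0023 over all genes. Both comparisons use the same Control libraries, so a low or high Control value enters both. Over all genes, 686 of 1095 calls were lower in K4 and 1759 of 3013 in Ketamine. With upper-quartile scaling 563 of 1090 were lower in K4, and on log2(TPM + 1) with limma 75 of 1018 were lower in K4 and 421 of 1840 in Ketamine. On that TPM scale the median of all genes was shifted by 0.16 in K4 and 0.12 in Ketamine, and the median of the 24 members with a mean of at least 1 TPM was 0.03 in K4, positive but below that shift, and -0.14 in Ketamine. The members called on that scale were Itgb8 in K4, and Itga1, Itga6, Itgb1 and Itgb8 in Ketamine, so the laminin and Itgav calls were lost.

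Among the collagen receptor subunits, Itga1 was the member with the largest fall. It had 4.16, 2.69 and 2.87 CPM (counts scaled to library size with TMM factors) in K4 libraries, 2.60, 1.57 and 1.30 CPM in Ketamine libraries, and 7.01, 5.72 and 4.08 CPM in Control libraries. All Ketamine libraries were below all Control libraries, whereas the highest K4 library lay just above the lowest Control library. The log2 fold change was -1.62 ± 0.28 (SE) in Ketamine against Control (edgeR adjusted p = 0.00292) and -0.79 ± 0.26 in K4 against Control (edgeR adjusted p = 0.0968), which was not called. The Ketamine call held in each of the 9 fits that left out 1 library. Itga11, a fibrillar collagen receptor subunit of mesenchymal cells, had 2.67, 2.29 and 2.06 CPM in K4, 1.99, 2.53 and 1.65 CPM in Ketamine, and 2.08, 1.30 and 1.31 CPM in Control libraries, with 1 K4 library falling within the Control range. Its edgeR adjusted p was 0.175 in K4 and 0.321 in Ketamine. Itga10, known from cartilage, stayed at 1.13 CPM or less in every library and was not called.

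Of the laminin receptor subunits, Itga6 pairs with Itgb1 or Itgb4 and is strong on brain endothelium. Its level was 64.5, 64.4 and 58.0 CPM in K4 libraries, 58.0, 55.5 and 56.3 CPM in Ketamine libraries, and 81.2, 99.1 and 64.8 CPM in Control libraries. Neither drug group overlapped Control, although the highest K4 library was only just below the lowest Control library. The log2 fold change was -0.39 ± 0.12 in K4 (edgeR adjusted p = 0.0783) and -0.53 ± 0.12 in Ketamine (edgeR adjusted p = 0.0129). The Ketamine call was lost without Ketamine replicate 2 (adjusted p = 0.058) and with the length offset (adjusted p = 0.0975). Itga3, which binds laminins with an alpha3 or alpha5 chain, had 31.1 to 36.4 CPM in K4, 29.5 to 36.4 CPM in Ketamine and 31.5 to 36.0 CPM in Control libraries, and the groups overlapped fully. Itga7, known from muscle, overlapped likewise at 10.7 to 11.1 CPM in K4, 8.74 to 10.7 CPM in Ketamine and 9.37 to 12.7 CPM in Control libraries.

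Itgb4, the beta partner of Itga6 in hemidesmosomes and in arterial endothelium, scattered most among the well-expressed subunits. It had 12.8, 2.90 and 9.42 CPM in K4 libraries, 14.0, 7.19 and 9.20 CPM in Ketamine libraries, and 6.50, 3.38 and 3.07 CPM in Control libraries. All Ketamine libraries were above all Control libraries, while K4 replicate 2 was below every Control library. Its log2 fold change was 0.95 ± 0.57 in K4 (edgeR adjusted p = 0.369) and 1.23 ± 0.57 in Ketamine (edgeR adjusted p = 0.193), and neither was called. It was called higher in Ketamine when K4 replicate 2 was left out of the shared fit, when K4 was left out altogether, and with the replicate block.

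The RGD-binding alpha subunits were led by Itgav, which joins several beta subunits and, with Itgb8, releases TGF-beta from its latent form. Itgav had 93.2, 92.9 and 92.0 CPM in K4 libraries, 119, 90.9 and 104 CPM in Ketamine libraries, and 141, 139 and 124 CPM in Control libraries. Every drug-treated library was below every Control library, and the K4 libraries lay within a coefficient of variation of 0.719%, the least of any member in that group. The log2 fold change was -0.54 ± 0.08 in K4 (edgeR adjusted p = 0.00624), a 1.45-fold lower level. In Ketamine it was -0.36 ± 0.08 (edgeR adjusted p = 0.0116), a 1.29-fold lower level. The K4 call held without each library in turn and with the length offset, but was lost with limma on log2(TPM + 1) (adjusted p = 0.0624) and on log2(TPM + 0.1) (adjusted p = 0.0628). The Ketamine call was lost without Control replicate 1 or Ketamine replicate 2, where its adjusted p reached 0.0595, with the length offset (adjusted p = 0.292) and with limma on either TPM scale.

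Itga8, an RGD-binding subunit known from mesenchyme and neurons, had 11.3, 8.52 and 8.34 CPM in K4, 5.35, 6.55 and 9.06 CPM in Ketamine, and 7.61, 5.23 and 6.56 CPM in Control libraries. All K4 libraries were above all Control libraries, but its log2 fold change, 0.54 ± 0.20, was not called (edgeR adjusted p = 0.126), and Ketamine and Control overlapped. Itga5, the fibronectin receptor subunit, had 1.25 to 3.06 CPM in K4, 1.71 to 2.07 CPM in Ketamine and 1.64 to 2.49 CPM in Control libraries. Itga2b, the platelet fibrinogen receptor subunit, had 1.48 to 1.72 CPM in K4, 1.19 to 2.60 CPM in Ketamine and 1.14 to 1.64 CPM in Control libraries. Both overlapped between all groups and neither was called. The related subunits Itga9 and Itga4, which bind VCAM1 and other non-RGD ligands, averaged 6.23 and 2.01 CPM in K4, 4.71 and 2.01 CPM in Ketamine, and 6.17 and 2.43 CPM in Control. Neither was called.

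Of the leukocyte integrins, Itgam and Itgb2 form complement receptor 3, which microglia carry in brain. Itgam had 11.9, 9.84 and 15.8 CPM in K4 libraries, 8.56, 7.73 and 11.1 CPM in Ketamine libraries, and 12.4, 15.2 and 12.6 CPM in Control libraries. All Ketamine libraries were below all Control libraries, and its log2 fold change of -0.55 ± 0.18 just missed the threshold (edgeR adjusted p = 0.0509). It was called lower in Ketamine by the DESeq2 Wald test, with 2 groups only, with the replicate block, and without K4 replicate 2, K4 replicate 3 or Ketamine replicate 3. K4 spanned the whole Control range, with a log2 fold change of -0.11 ± 0.17. Itgb2 had 9.11, 8.46 and 9.59 CPM in K4, 8.56, 8.55 and 7.99 CPM in Ketamine, and 9.06, 13.4 and 8.90 CPM in Control libraries. The Ketamine libraries lay below the Control libraries, and the log2 fold change of -0.32 ± 0.15 was not called (edgeR adjusted p = 0.158).

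Itgae, which binds E-cadherin, averaged 2.89 CPM in K4, 3.22 CPM in Ketamine and 3.01 CPM in Control, with overlapping libraries. Itgal, the lymphocyte subunit that binds ICAM proteins, had 1.60, 1.47 and 3.78 CPM in K4, 0.734, 1.07 and 0.839 CPM in Ketamine, and 1.23, 1.33 and 1.76 CPM in Control libraries. K4 replicate 3 stood high for it. The same library was the highest of all 9 for Itgax, a dendritic cell and activated microglia subunit, with 1.59 CPM, whereas no other library exceeded 0.534 CPM. Itgb7, a lymphocyte homing subunit, was at 0.428 to 0.623 CPM in K4, 0 to 0.397 CPM in Ketamine, and 0, 0.182 and 0 CPM in Control libraries. All K4 libraries exceeded all Control libraries, and the log2 fold change of 3.04 had a 95% interval of 0.83 to 5.25 (edgeR adjusted p = 0.0965). Itgb7 was called higher in both drug groups when Control replicate 2 was left out. That library was the only Control library with Itgb7 reads, so Control was at 0 in that fit and the call adds little.

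Among the remaining beta subunits, Itgb8 was called lower in both drug groups under every setting tried. This subunit pairs with Itgav alone and is carried in brain by astrocytes and radial glia, where it serves the activation of TGF-beta beside vessels. It had 71.5, 71.3 and 69.4 CPM in K4 libraries, 69.3, 63.3 and 63.3 CPM in Ketamine libraries, and 98.6, 126 and 91.2 CPM in Control libraries. A wide gap separated all 6 drug-treated libraries from all Control libraries. Its log2 fold change was -0.57 ± 0.10 in K4 (edgeR adjusted p = 0.00965), a 1.49-fold lower level, and -0.69 ± 0.10 in Ketamine (edgeR adjusted p = 0.00123), a 1.61-fold lower level. Both calls held in all 9 fits that left out a library and in all 9 other settings tried, with the length offset at -0.41 in K4 (adjusted p = 0.0482) and -0.44 in Ketamine (adjusted p = 0.0200).

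Itgb1 had 97.9, 88.8 and 82.1 CPM in K4 libraries, 84.8, 70.4 and 82.6 CPM in Ketamine libraries, and 113, 144 and 96.5 CPM in Control libraries. The Ketamine libraries were below all Control libraries, and 1 K4 library exceeded the lowest Control library. The log2 fold change was -0.57 ± 0.13 in Ketamine (edgeR adjusted p = 0.0151), and the call was lost without Ketamine replicate 2 (adjusted p = 0.0642). In K4 it was -0.40 ± 0.13 and not called (edgeR adjusted p = 0.101). Itgb5, a vitronectin receptor subunit common in glia, had 29.3 to 36.6 CPM in K4, 30.7 to 34.0 CPM in Ketamine and 28.1 to 47.0 CPM in Control libraries, so the drug groups lay inside the Control range. Itgb3, the platelet and endothelial partner of Itgav, had 0.428 to 1.10 CPM in K4, 0.249 to 1.16 CPM in Ketamine and 0.442 to 0.668 CPM in Control libraries, and overlapped too. Itgb6, an epithelial activator of TGF-beta, had 0.327 to 0.507 CPM in K4, 0.336 to 0.434 CPM in Ketamine and 0.594 to 1.25 CPM in Control libraries. Its drug-treated libraries were all below Control, but at this depth the fold changes of -0.96 ± 0.40 in K4 and -1.15 ± 0.41 in Ketamine were not called (edgeR adjusted p = 0.167 and 0.0705).

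The laminin alpha chains set which receptor a laminin meets. Lama4 had 25.8, 23.3 and 25.0 CPM in K4 libraries, 26.1, 23.8 and 22.7 CPM in Ketamine libraries, and 32.7, 30.5 and 29.0 CPM in Control libraries. Lama5, the chain of mature vessel laminin, had 8.76, 8.86 and 7.87 CPM in K4, 8.53, 8.55 and 8.01 CPM in Ketamine, and 10.5, 12.1 and 10.8 CPM in Control libraries. For both chains every drug-treated library was below every Control library. The Lama4 log2 fold change was -0.32 ± 0.08 in K4 (edgeR adjusted p = 0.0362) and -0.35 ± 0.08 in Ketamine (edgeR adjusted p = 0.0113). That of Lama5 was -0.39 ± 0.10 in K4 (edgeR adjusted p = 0.0452) and -0.41 ± 0.11 in Ketamine (edgeR adjusted p = 0.0179). These calls were among the least stable: leaving out 1 library ended the K4 call of Lama5 in all 9 fits and that of Lama4 in 5 of 9, and ended the Ketamine call of each in 3 of 9. For Lama4 these were the fits without Control replicate 1, any K4 library or Ketamine replicate 2 in K4, and without Control replicate 1 or Ketamine replicate 2 or 3 in Ketamine. For Lama5 in Ketamine they were those without Control replicate 2 or Ketamine replicate 2 or 3.

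Lama2, the chain of muscle and of the astrocyte and pericyte side of the vessel membrane, whose loss in humans causes a muscular dystrophy, had 11.7, 8.74 and 10.3 CPM in K4 libraries, 8.47, 9.30 and 9.29 CPM in Ketamine libraries, and 14.5, 11.0 and 12.5 CPM in Control libraries. The Ketamine libraries were below all Control libraries, and K4 overlapped Control. Its log2 fold change was -0.49 ± 0.13 in Ketamine (edgeR adjusted p = 0.0222) and -0.31 ± 0.13 in K4 (edgeR adjusted p = 0.17). The Ketamine call was lost without Control replicate 1 or without any of the Ketamine libraries. Lama1, a chain of the embryo and the meninges, averaged 6.36 ± 0.919 CPM in K4, 5.19 ± 0.755 in Ketamine and 6.88 ± 1.34 in Control. Lama3, a chain of epithelia, averaged 5.67 ± 1.15 CPM in K4, 6.32 ± 0.424 in Ketamine and 6.67 ± 1.04 in Control. Neither was called.

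Among the gamma chains, Lamc1 was called in both drug groups. It had 47.1, 51.0 and 47.2 CPM in K4 libraries, 47.4, 42.0 and 46.4 CPM in Ketamine libraries, and 58.1, 63.0 and 57.7 CPM in Control libraries. Drug-treated and Control libraries did not overlap. The log2 fold change was -0.30 ± 0.07 in K4 (edgeR adjusted p = 0.0238), lost in 3 of 9 fits that left out a library (without Control replicate 1, K4 replicate 1 or K4 replicate 3). In Ketamine it was -0.40 ± 0.07 (edgeR adjusted p = 0.00236), held in all 9. Lamb2 had 43.7 to 54.8 CPM in K4, 38.9 to 47.0 CPM in Ketamine and 43.8 to 56.2 CPM in Control libraries. Lamb1, the other main beta chain, had 34.5 to 40.3 CPM in K4, 34.7 to 40.5 CPM in Ketamine and 37.4 to 44.3 CPM in Control libraries. Both beta chains overlapped between all groups. Their log2 fold changes in Ketamine had 95% intervals of -0.45 to 0.02 for Lamb2 and -0.34 to 0.03 for Lamb1. Lamb3, a partner of Lama3 in epithelial laminin, averaged 1.03 CPM in K4, 0.906 CPM in Ketamine and 0.694 CPM in Control. Lamc3, a gamma chain of cortex and nerve, averaged 5.58 CPM in K4, 4.63 CPM in Ketamine and 4.97 CPM in Control, and neither of these chains was called.

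**Figure D2:**
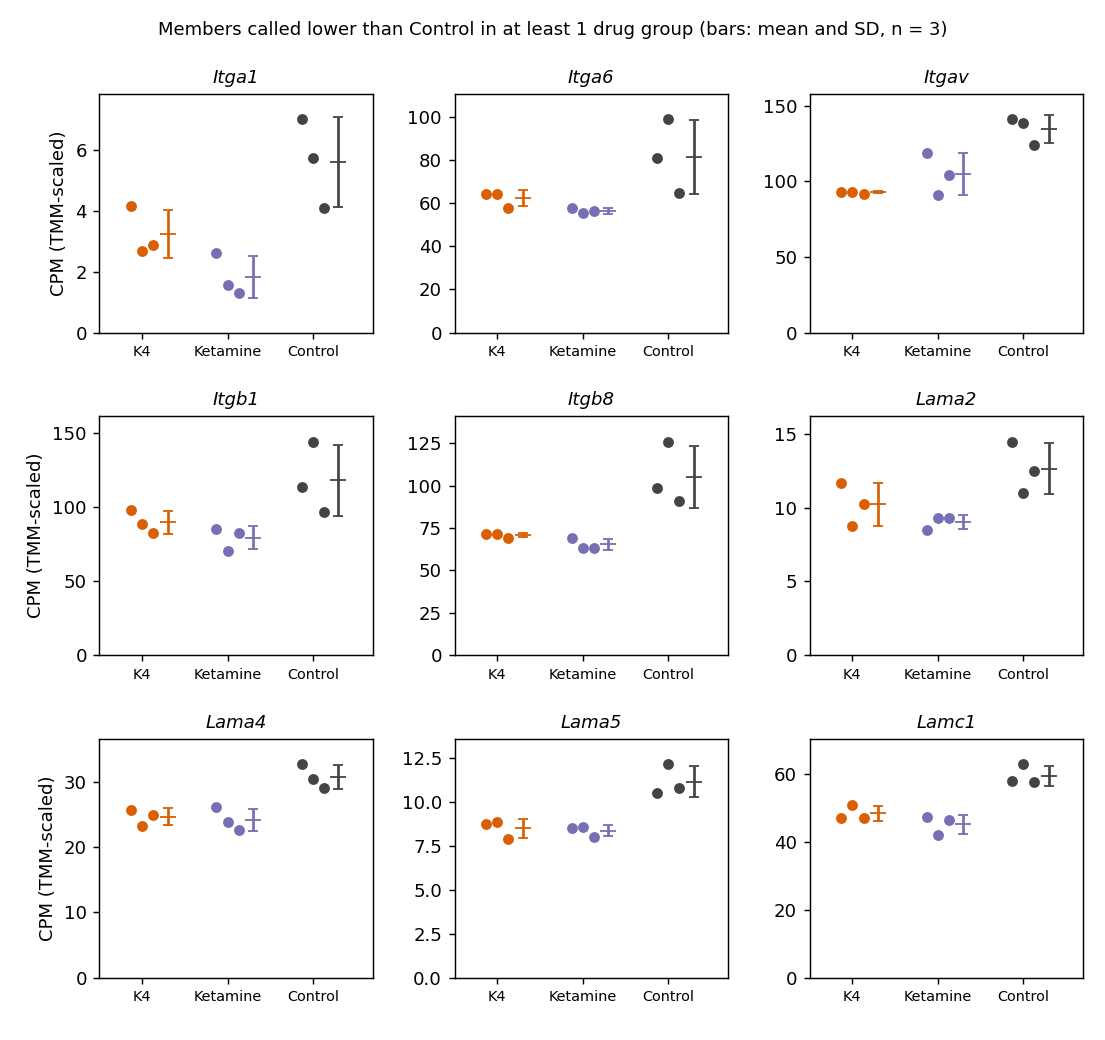
CPM (TMM-scaled) per library of the 9 members called lower than Control in at least 1 drug group, with mean and SD to the right of each group's 3 points and axes that start at 0. Itgb8, Itgav, Lama4, Lama5 and Lamc1 show no overlap between drug-treated and Control libraries, and Control replicate 2 is the highest point for Itgb8, Itgb1, Itga6, Lama5 and Lamc1.

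**Figure D3:**
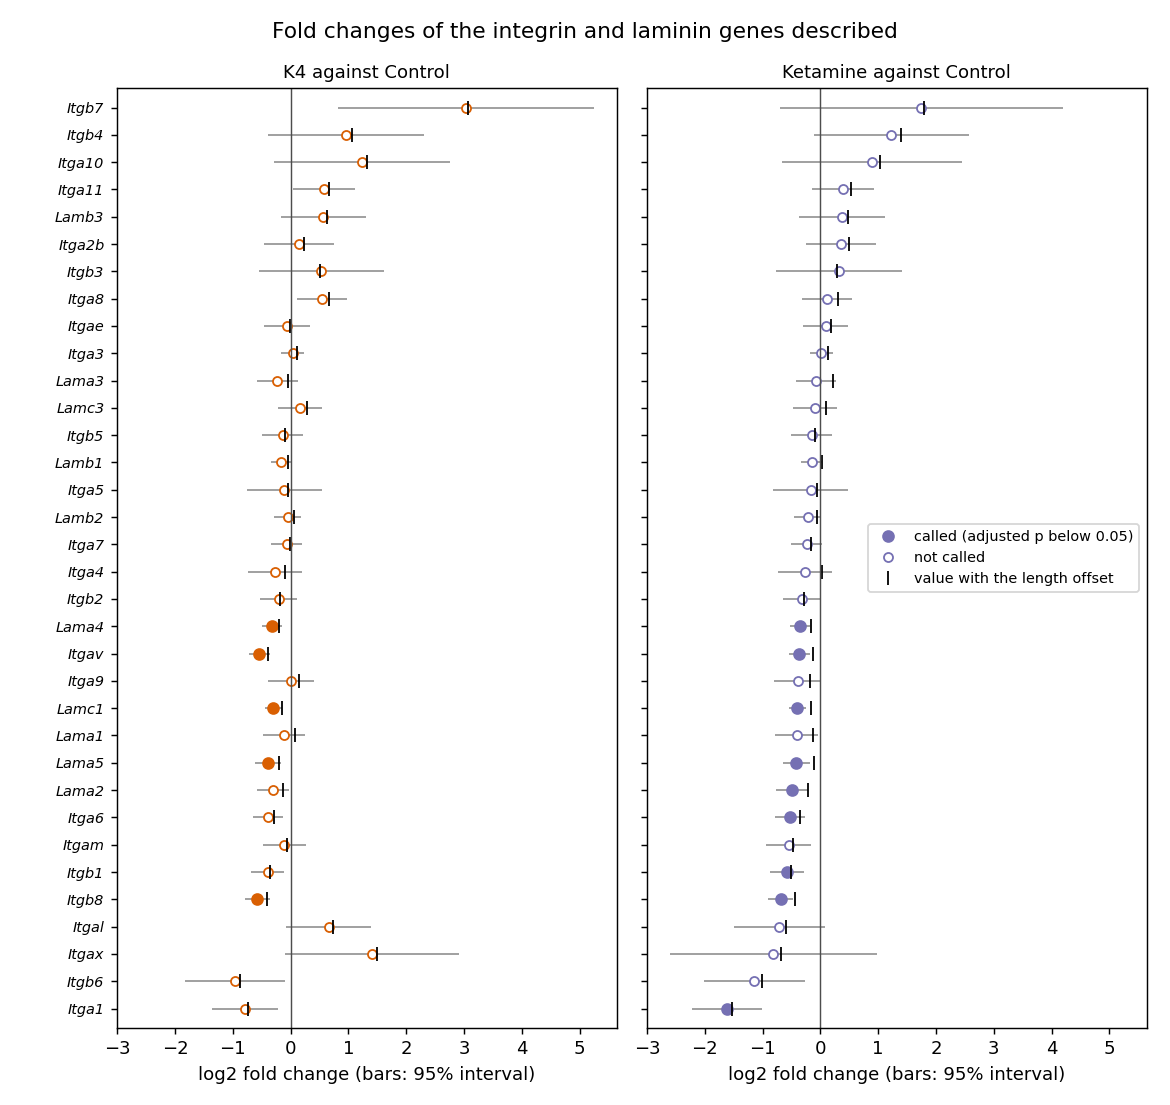
Log2 fold changes of the tested members described here in K4 (left) and Ketamine (right) against Control, with 95% intervals (bars), filled points for calls and short black ticks for the value with the length offset. The 5 K4 and 9 Ketamine calls all lie below 0, and the ticks lie nearer to 0 than their points for all of them.

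Transcript length bears on all of these values. In K4 against Control the median log2 fold change of all genes went down with implied length, with 0.16 in the shortest of 20 equal bins and -0.18 in the longest. The corresponding medians in Ketamine against Control were 0.23 and -0.26. When each library's trend over length was removed by an offset in the edgeR model, 2 members were called lower in K4, where 1.18% of all genes were called lower, and 3 in Ketamine, where 4.37% were. The K4 genes were Itgav, at -0.39 (adjusted p = 0.0227), and Itgb8. The Ketamine genes were Itgb8, Itga1, at -1.54 (adjusted p = 0.00681), and Itgb1, at -0.51 (adjusted p = 0.038). With that offset the members' median was -0.01 in K4 and -0.08 in Ketamine, beside 0.01 over all genes in both. All laminin calls were lost, with Lamc1 at -0.15 in K4 (adjusted p = 0.225) and -0.16 in Ketamine (adjusted p = 0.143). Whether the length trend comes from RNA quality, library making or expression was not tested.

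**Figure D4:**
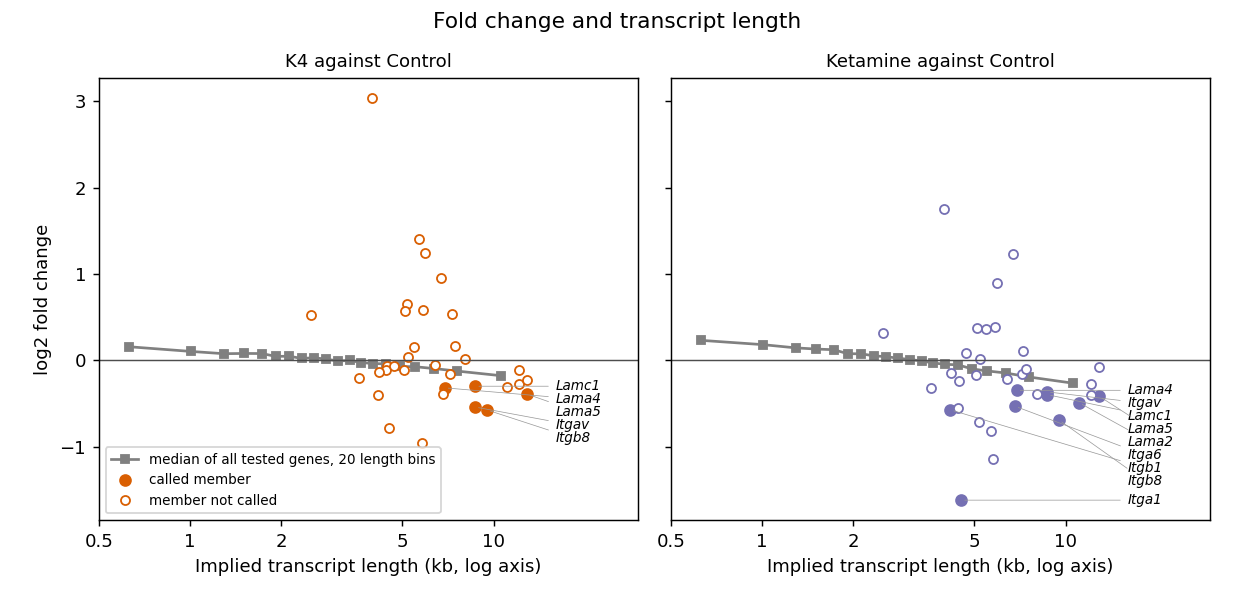
Log2 fold change of each member described here (circles, filled where called) against implied transcript length (log axis) in K4 (left) and Ketamine (right) against Control, with the median of all tested genes in 20 length bins as grey squares. The grey line runs from 0.16 to -0.18 in K4 and from 0.23 to -0.26 in Ketamine, and Itga1 and Itgb8 lie well below it in Ketamine.

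In K4 against Ketamine no member was called by edgeR, as were 0 of all 18047 genes (0%), while 4 members and 1648 genes had an unadjusted p below 0.05. The DESeq2 Wald test called 0 members and 70 genes. The members' median log2 fold change was 0.18, beside 0.00 over all genes, and 28 of 35 members had a positive value. The share of positive values over all genes was not computed. With the length offset the members' median was 0.11, beside -0.0011 over all genes. In fits that left out 1 library it ran from 0.09, without K4 replicate 1, to 0.18, without K4 replicate 3. The smallest p belonged to Itgal, whose log2 fold change was 1.37 ± 0.36 (edgeR adjusted p = 0.331), and the other members under that unadjusted level were Itga1, Itgax and Itgam. For Itga1, the K4 level was above the Ketamine level by 0.83 on the log2 scale, with a 95% interval of 0.20 to 1.45. For Itgb8 the difference was 0.12, with an interval of -0.10 to 0.33, and for Itgav it was -0.18, with an interval of -0.36 to 0.01. A gene called in 1 drug group and not in the other is therefore not shown to differ between the drugs.

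The transcripts around these receptors and chains were described by 6 lists of partners. Over all genes 3.8% were lower and 2.27% higher in K4, and 9.75% lower and 6.95% higher in Ketamine. With the length offset these shares were 1.18% lower and 1.2% higher in K4, and 4.37% lower and 3.23% higher in Ketamine. Of 10 basement membrane partners of laminin, 0 were called in K4 (0 also at an unadjusted p below 0.05, edgeR) and 3 were lower in Ketamine. These were the collagen IV chains Col4a1, at 39.0 ± 2.57 CPM in Ketamine and 50.3 ± 2.22 CPM in Control (log2 fold change -0.36, edgeR adjusted p = 0.00295), and Col4a2 (-0.23), and perlecan, Hspg2 (-0.53). All of these calls were lost with the length offset, with Col4a1 at an adjusted p of 0.104, Col4a2 at 0.777 and Hspg2 at 0.469, and 0 genes of the list were lower and 1 higher in Ketamine. Of 17 other integrin ligands tested, Tnc, which encodes tenascin C, was the 1 gene lower in K4 (-0.54, edgeR adjusted p = 0.0373), and 3 were lower in Ketamine. The fibronectin gene Fn1 had 81.1 ± 5.67 CPM in Ketamine and 133 ± 19.3 CPM in Control (-0.72, edgeR adjusted p = 0.00139), beside Tnc (-0.72) and the perineuronal net gene Tnr (-0.48). With the length offset Fn1 and Tnc were still called in Ketamine, whereas the K4 call of Tnc was lost (adjusted p = 0.139) and so was that of Tnr in Ketamine (adjusted p = 0.0697).

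Dystroglycan and its partners are the main laminin receptors besides integrins. Of 14 such genes 4 were lower in K4 and 5 in Ketamine, and 0 were higher in either. Dmd, the dystrophin gene, had 98.4 ± 1.32 CPM in K4, 93.5 ± 2.85 CPM in Ketamine and 123 ± 7.19 CPM in Control, with log2 fold changes of -0.32 in K4 (edgeR adjusted p = 0.0103) and -0.40 in Ketamine (edgeR adjusted p = 0.00113). Utrn, its relative utrophin, fell by 0.49 in K4 and by 0.68 in Ketamine on the log2 scale. Sgcb, a sarcoglycan, fell in K4 (-0.23), and sarcospan, Sspn (-0.66), and dystroglycan itself, Dag1 (-0.23), fell in Ketamine. With the length offset the K4 calls of this list were lost, and Dmd, Utrn and Sspn were still called in Ketamine.

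Inside the cell, 0 of 25 integrin activators and adaptors were called in K4 by edgeR, with 6 at an unadjusted p below 0.05. In Ketamine 5 were lower and 1 higher. The talin genes Tln2 (-0.33, edgeR adjusted p = 0.00433) and Tln1 (-0.41), whose proteins switch integrins on, were lower with Parvb (-0.31) and Lims1 (-0.36) of the complex that joins integrins to actin, and Rapgef1 (-0.28). Sharpin, an inhibitor of integrin activation, was higher (0.24, edgeR adjusted p = 0.0316). With the length offset Parvb was the 1 gene of this list still called in Ketamine, while Tln2 moved to -0.01 (adjusted p = 0.918), Tln1 to -0.15 (adjusted p = 0.36) and Rapgef1 to -0.01 (adjusted p = 0.957), and the calls of Lims1 and Sharpin were lost as well. Of 22 kinases and exchange factors downstream, 2 were lower and 1 higher in K4, and 3 were lower and 1 higher in Ketamine. The share called was 13.6% in K4, where 6.07% of all genes were called, and 18.2% in Ketamine, near the 16.7% of all genes. Under the length offset 1 was lower and 1 higher in K4, and 2 were lower and 4 higher in Ketamine. The Src-family kinase gene Yes1 had 15.2 ± 0.553 CPM in K4, 15.4 ± 1.71 CPM in Ketamine and 22.2 ± 2.76 CPM in Control, and was called in both, also with the length offset. Ptk2, the focal adhesion kinase gene, was higher in K4 (0.24, edgeR adjusted p = 0.0371). Of 8 genes for latent TGF-beta and the proteins that hold it, only Tgfb2 was called. It was lower in both, at -0.31 in K4 (edgeR adjusted p = 0.0227) and -0.32 in Ketamine (edgeR adjusted p = 0.00726). The share called was 12.5% in each, beside 6.07% of all genes in K4 and 16.7% in Ketamine. Both calls were lost with the length offset, at -0.22 in K4 (adjusted p = 0.095) and -0.18 in Ketamine (adjusted p = 0.118).

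Markers of many cell types moved as well, neurons included, and in bulk tissue fewer cells of a type and less RNA per cell cannot be told apart. For the counts below, 3.8% of all genes were lower and 2.27% higher in K4, and 9.75% lower and 6.95% higher in Ketamine. With the length offset the shares lower were 1.18% in K4 and 4.37% in Ketamine. Of 14 endothelial markers 2 were lower in K4 and 6 in Ketamine, and their summed level was 392 to 432 TPM in K4, 315 to 377 TPM in Ketamine and 429 to 487 TPM in Control libraries. Of 12 pericyte and smooth muscle markers 2 were lower in K4 and 4 in Ketamine, at 163 to 219 TPM in K4, 137 to 215 TPM in Ketamine and 200 to 232 TPM in Control libraries. Of 11 astrocyte markers 2 were lower in K4 and 6 in Ketamine, at 3901 to 4295 TPM in K4, 3755 to 3815 TPM in Ketamine and 4103 to 5056 TPM in Control libraries. None of these 3 lists had a gene called higher. The summed endothelial and astrocyte levels did not overlap between Ketamine and Control. After removal of the length trend, 1 endothelial, 2 pericyte and 1 astrocyte marker were lower in K4, and 5, 3 and 2 in Ketamine. Of 12 markers of cortical excitatory neurons 2 were lower and 1 higher in K4, and 4 were lower in Ketamine. Without the length offset this Ketamine share, 33.3%, equals that of the pericyte list. With the offset 1 excitatory neuron marker was lower and 1 higher in K4. In Ketamine 1 was lower with the offset, beside 3 pericyte markers. The summed level of the excitatory neuron markers was 1417 to 1439 TPM in K4, 1281 to 1408 TPM in Ketamine and 904 to 1428 TPM in Control libraries. Calls rest on scaled counts, whereas on log2(TPM + 1) the median of all genes was 0.16 above Control in K4 and 0.12 in Ketamine. The TPM sums of a list need therefore not follow its calls. Of 9 inhibitory neuron markers 0 were called in K4 (edgeR, 3 at an unadjusted p below 0.05), and 1 was lower and 2 higher in Ketamine. With the length offset 1 inhibitory neuron marker was lower and 1 higher in Ketamine.

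Of 12 microglial markers 1 was lower in K4 (8.33%, beside 3.8% of all genes) and 5 in Ketamine (41.7%, beside 9.75%). Their summed level was 541 to 560 TPM in K4, 489 to 532 TPM in Ketamine and 499 to 550 TPM in Control libraries. The same shares over all genes apply to the next lists. Of 9 oligodendrocyte precursor markers 1 was lower in K4 and 4 in Ketamine, and of 12 meningeal and perivascular fibroblast markers 0 were called in K4 (edgeR, 4 at an unadjusted p below 0.05) and 1 was lower in Ketamine. The 1 lower gene was Pdgfra, which is also counted among the precursor markers. Cspg4, lower in Ketamine, is likewise counted among both the precursor and the pericyte markers, so these counts are not separate. Most fibroblast markers lay on the other side of 0: 9 of 12 were positive in K4, with a median log2 fold change of 0.65, and 10 of 12 in Ketamine, with a median of 0.61. Fibroblast markers spread widely within groups, over 75.8 to 189 TPM in K4, 117 to 172 TPM in Ketamine and 88.0 to 132 TPM in Control libraries. Of 10 oligodendrocyte markers 1 was higher in K4 and 1 lower in Ketamine. Log2 fold changes were positive for 9 in K4 and negative for 9 in Ketamine. They summed to 2112.5 to 2658 TPM in K4, 1469 to 1786 TPM in Ketamine and 1410 to 2014 TPM in Control libraries. In K4 against Ketamine all 10 were positive, with a median of 0.47, and 0 were called (edgeR, 7 at an unadjusted p below 0.05). Leukocyte and platelet markers were close to absent: 2 of 12 passed the filter, Cd79b, Ppbp and Gp9 were at 0 in all libraries, and the list summed to 4.82 to 9.30 TPM in K4, 2.68 to 4.83 TPM in Ketamine and 2.47 to 3.49 TPM in Control libraries. Striatal neuron markers had 3 of 7 genes called higher in K4 and 1 in Ketamine, where 2.27% and 6.95% of all genes were. Log2 fold changes were negative for 3 of the 7 in K4 and for 5 in Ketamine, where their median was -0.07. With the length offset 2 were higher in K4 and 0 in Ketamine. Their summed level was 164 to 178 TPM in K4, 145 to 156 TPM in Ketamine and 118 to 145 TPM in Control libraries. Choroid plexus and ependyma genes summed to 8.17 to 15.2 TPM in K4, 9.58 to 10.8 TPM in Ketamine and 6.45 to 9.99 TPM in Control libraries. Of the 6 tested, 0 were called in either drug group against Control (edgeR). Whether neighbouring tissue entered the samples was not tested. The part that these cell types, or Control replicate 2, play in the integrin and laminin values was not tested. Without Control replicate 2, edgeR called 4 members lower and Itgb7 higher in K4, and 8 lower and Itgb7 higher in Ketamine. In that fit 1548 of 18391 genes were called in K4, 1007 of them lower, and 3058 in Ketamine, 1833 of them lower.

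Promoters are shown for the members still called with the length offset, which were Itgb8 in both drug groups, Itgav in K4, and Itga1 and Itgb1 in Ketamine. Of the 37 members, 28 matched a promoter in the RefSeq table for GRCr8, and the 250 bases upstream of the annotated start were searched on both strands for common promoter motifs, which did not overlap each other in the stretches shown. The stretches are Itga1 at chr2:48545284-48545533 (minus strand), Itgav at chr3:89245132-89245381 (plus strand), Itgb1 at chr19:73602027-73602276 (plus strand) and Itgb8 at chr6:146351246-146351495 (minus strand), all in GRCr8. They run 5′ to 3′ in the direction of transcription and end at the base before the start, with matches to any of these motifs in capitals.
Itga1: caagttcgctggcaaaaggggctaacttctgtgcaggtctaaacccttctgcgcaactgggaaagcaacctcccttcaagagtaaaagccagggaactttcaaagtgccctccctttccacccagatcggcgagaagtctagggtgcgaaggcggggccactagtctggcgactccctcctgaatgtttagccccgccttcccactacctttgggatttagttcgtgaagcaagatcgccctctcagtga
Itgav: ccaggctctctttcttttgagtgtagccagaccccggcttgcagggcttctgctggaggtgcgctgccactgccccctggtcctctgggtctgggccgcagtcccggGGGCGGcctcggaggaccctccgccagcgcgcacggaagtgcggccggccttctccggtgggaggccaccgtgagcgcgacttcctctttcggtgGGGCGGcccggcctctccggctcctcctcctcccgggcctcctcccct
Itgb1: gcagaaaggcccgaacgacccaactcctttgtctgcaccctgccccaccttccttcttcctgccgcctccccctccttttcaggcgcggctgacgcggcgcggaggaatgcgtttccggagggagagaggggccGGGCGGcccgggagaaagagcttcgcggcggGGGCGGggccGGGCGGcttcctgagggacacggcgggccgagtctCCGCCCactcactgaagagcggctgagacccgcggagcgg
Itgb8: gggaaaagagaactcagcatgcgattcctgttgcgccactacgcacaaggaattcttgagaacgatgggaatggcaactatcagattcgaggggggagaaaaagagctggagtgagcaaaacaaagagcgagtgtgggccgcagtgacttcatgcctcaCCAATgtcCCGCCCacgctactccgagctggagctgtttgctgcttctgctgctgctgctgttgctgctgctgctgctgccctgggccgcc

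Itgav held 2 GC boxes, which begin 143 and 48 bases before the start, and Itgb1 held 4, which begin 116, 85, 75 and 40 bases before it. Itgb8 held 1 GC box, 83 bases before the start, beside a CCAAT box 91 bases before it, and the Itga1 window held none of the searched motifs. The GC box was searched as GGGCGG, which 14 of 28 members held, against 38.9% of all 21851 promoters of that length. The CCAAT box was found in 5 of 28, against 35% of all promoters. The TATA box, searched as TATAAA, was found in 2, against 12.1%. The AP-1 motif, searched as TGANTCA, was found in 2, against 5.69%. The cyclic AMP response element, searched as TGACGTCA, was found in 1, against 1.89% of all promoters. The E-box, searched as CACGTG, was found in 0, against 6.16%. The median GC content was 58.2% for the members and 54% for all promoters. These matches describe the letters of the windows and say nothing of binding.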

How the data were processed

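Each library was made from total RNA of mPFC with a poly(A)-selecting stranded kit, per the labels. The submitters' processing notes name HISAT2 2.1.0, StringTie 2.1.3b, Trimmomatic and bcl2fastq 2.20.0 with build rn6, but give no role for any of them. The authors deposited 1 table of raw counts, not normalised, for all 9 libraries, and, per the file headers, FPKM and TPM of every gene. How strand was treated in counting is not given in the sources used here, so a gene that overlaps another, on either strand, may share its reads. Implied transcript length was computed from deposited counts and the deposited FPKM.

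Counts were fitted in R 4.3.3 with edgeR 4.0.16 (TMM, filterByExpr with minimum count 10 and minimum total 15, robust quasi-likelihood, 3 groups in 1 model of all 9 libraries), and p-values were adjusted over the 18047 genes in the fit. Its common biological coefficient of variation came to 10.2%. The length offset is a lowess trend (span 0.3) of each library's deviation over length. Alternatives were DESeq2 1.42.0, limma 3.58.1 on log2(TPM + 1) and log2(TPM + 0.1), other scalings, no filter, 2 groups only, a replicate block and leaving out each library. The scripts were tested on simulated data. Each SD is over 3 libraries, and each SE is the model's.

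Values per library are given for each member called, and values or ranges for the others, first the 3 highest per role. Itgal, Itgax and Itgb7 are given in more detail after their values were seen. Other genes are up to 4 called genes per list by smallest p, and Dag1, Rapgef1, Sharpin and genes at 0 were added after their values were seen. The members and lists were chosen with earlier results of these data known. Of 230 list entries, 228 matched the table. No library's column was left unmapped. A few items are counted in the totals but not reported here by name.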

Additional observations from a re-analysis of the deposited data

How the results depend on the processing

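Every called member kept its negative direction in all settings and in all fits without a library. Of the values per called member and setting, 190 kept their side of the threshold and 62 lost it. In K4 against Control the 5 members and 1095 genes called became 8 and 1890 with the DESeq2 Wald test, 3 and 452 with the 2 groups only, and 2 and 430 with the length offset. Itga1, Itga6 and Itgb1, not called in K4 in the main fit, were called lower there by the DESeq2 Wald test. Of the fits that left out 1 library, only that without Control replicate 3 called them in K4. The replicate block called Itga1 and Itga6 lower in K4. With limma 1 member was called at either pseudocount (1018 and 1002 genes). Leaving out 1 library gave 2 to 7 members and 174 to 1548 genes, with 174 genes without Control replicate 1 and 228 to 346 without each K4 library. In Ketamine against Control the 9 members and 3013 genes became 3 and 1372 with the length offset, 4 and 1840 with limma at a pseudocount of 1, and 4 and 1837 at 0.1. Leaving out 1 library gave 3 to 11 members and 1177 to 3191 genes, with 3 members and 1177 genes without Ketamine replicate 2. In K4 against Ketamine 0 members were called in every setting. Over all genes 70 were called by the DESeq2 Wald test, 6 with no filter, 27 with 2 groups only, 2 with limma at either pseudocount, and 0 to 27 without a library. The cause of these shifts was not tested, except that fits of 2 groups, or without a library, use fewer libraries.

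Correlations of same-numbered libraries were weak, at 0.00 to 0.11, with 1 of 9 over 0.1, but 7 of 9 comparisons were best with the own number. A weak effect shared by libraries of the same number is therefore not excluded, and the main fit did not pair libraries. With a replicate block 7 members (1168 genes) were called in K4, 11 members (3191 genes) in Ketamine, Itgb4 among them as higher, and 0 members (1 gene) in K4 against Ketamine. Members under 1 CPM, such as Itgb7, Itgb6 and Itgax, rest on few reads.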

Other observations

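Within groups the members differed in spread: the median coefficient of variation of CPM was 13.8% in K4, 13.3% in Ketamine and 18.5% in Control. With 3 libraries per group, no vehicle group analysed here and 1 time point, the values describe these libraries after withdrawal. RNA levels do not give integrin or laminin protein.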
